A study of Homo sapiens with 96 samples.

Results

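Whole-cell input RNA of the latest window of a synchronised course, T8-10, was compared with that of the earliest window, T0-2. The comparison used the 2 libraries of each window, 4 of the 96 samples of the series, chosen by their labels and paired by replicate number. The cells were hTERT-RPE1, a human retinal pigment epithelium line immortalised with telomerase. Every window library came from cells held for 22 h in 400 uM mimosine. This plant amino acid chelates iron and stops cells before or at the start of DNA synthesis. Both groups carry the same treatment label and differ in the window in which they were collected. Time since the drug and progress through the cell cycle may change together between the windows, and this design cannot tell them apart. The labels give the windows as T0-2, T2-4, T4-6, T6-8 and T8-10 without a unit. The windows T2-4, T4-6 and T6-8 (2 libraries each) entered the fit and show the course between the ends, and asynchronous cells were not used. The molecule is labelled as total RNA, the pool from which nascent RNA was taken in the same series. Nothing in the labels says that the replicates were separate cultures, so the p-values speak only of how far these libraries scatter, which can be technical.

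In a cell that enters S phase, E2F factors switch on the genes of DNA replication and cyclin E, and the replication-dependent histone genes are transcribed and their mRNA, which ends in a stem-loop and not in a poly(A) tail, is stabilised by the stem-loop binding protein. Later, B-Myb and FOXM1 govern the genes of G2 and mitosis. Iron chelators such as mimosine also block the prolyl hydroxylases that mark hypoxia-inducible factors for destruction, and genes of the hypoxia response are raised while the drug is present.

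Values are RPKM, reads scaled to gene length and to library size. The length used is that of the whole gene span, introns included, so levels of different genes are not levels per length of mRNA. Differences are in log2(RPKM + 0.25), T8-10 minus T0-2, with the standard error (SE) of a limma fit over the 10 window libraries in which replicate number was a term. A gene was called risen or fallen at an adjusted p (Benjamini-Hochberg) under 0.05. Of 9740 genes that reached 0.5 RPKM in 2 or more window libraries, 578 rose (5.93%) and 370 fell (3.80%), 948 in all (9.73%), and 2694 had an unadjusted p under 0.05. All 948 called genes changed the same way in both pairs. The change exceeded 1 on the log2 scale in 124 of the risen and 179 of the fallen genes. Rises were 61% of the calls, 41.2% with the medians of all libraries set equal and 39% with quantile normalization. The median difference of all tested genes was 0.08, and list medians below are to be read against it.

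These counts rest on the pairing. Without the replicate term 0 genes were called by limma, with 249 at an unadjusted p under 0.05, and 3682 genes (37.8%) differed on average by more than 1 on the log2 scale between replicate numbers. Each of the 4 libraries compared also carried much of the count: 438 genes were called without T0-2 replicate 1, 306 without T0-2 replicate 2, 239 without T8-10 replicate 1 and 514 without T8-10 replicate 2, where the lone library of a window is assumed to vary like the others. Of the 150 called genes that the text and its lists draw on, all kept their direction in each of these 4 fits, and 71, 78, 56 and 100 of them stayed called. Recovered depth (in units of 1000000 reads) ran from 7.84 to 23.4 per library, with 18.6 and 14.3 at T0-2 and 23.4 and 10.1 at T8-10. The lower quartile of RPKM over the table was 0.0097 to 0.0136 in libraries numbered 1 and 0.033 to 0.25 in those numbered 2, the highest at T6-8 replicate 2. Of 18 markers of other cell types (blood, endothelium, gut epithelium, neurons and others) 8 were in the table, none reached the filter, and their summed RPKM was 0.115 and 0.472 at T0-2 and 0.125 and 0.472 at T8-10. Pigment epithelium genes were mostly near 0: RPE65 had at most 0.169 RPKM in any window library and TYR at most 0.263, while KRT18 had 23.1 and 9.94 at T0-2 and MITF, the pigment cell transcription factor and the 1 called gene of the 5 tested, rose by 0.68 ± 0.16 (SE).

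**Figure D1:**
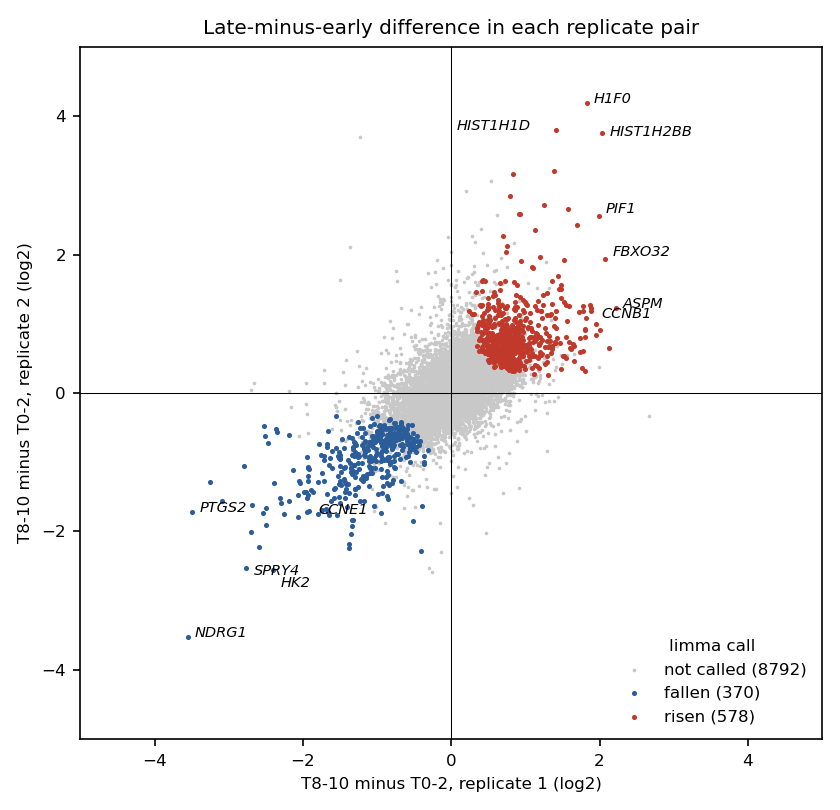
Each point is 1 of the 9740 tested genes, with the log2 difference T8-10 minus T0-2 in replicate 1 on the x axis and in replicate 2 on the y axis; colours give the limma call. The 578 risen genes lie in the upper right and the 370 fallen genes in the lower left, with NDRG1 lowest and H1F0 highest.

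The largest changes named several kinds of gene. By the naming rule, the 12 strongest rises among genes reaching 2 RPKM were 9 replication-dependent histone genes, the replacement linker histone H1F0, the DNA helicase PIF1 and the ubiquitin ligase subunit FBXO32. The 12 strongest falls were NDRG1, SPRY4, PTGS2, HK2, DUSP5, HBEGF, RGS2, IL11, ENO2, DUSP6, MAFF and PFKFB4, genes of the hypoxia response, of feedback on growth factor signalling, and of cytokine signalling.

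**Figure D2:**
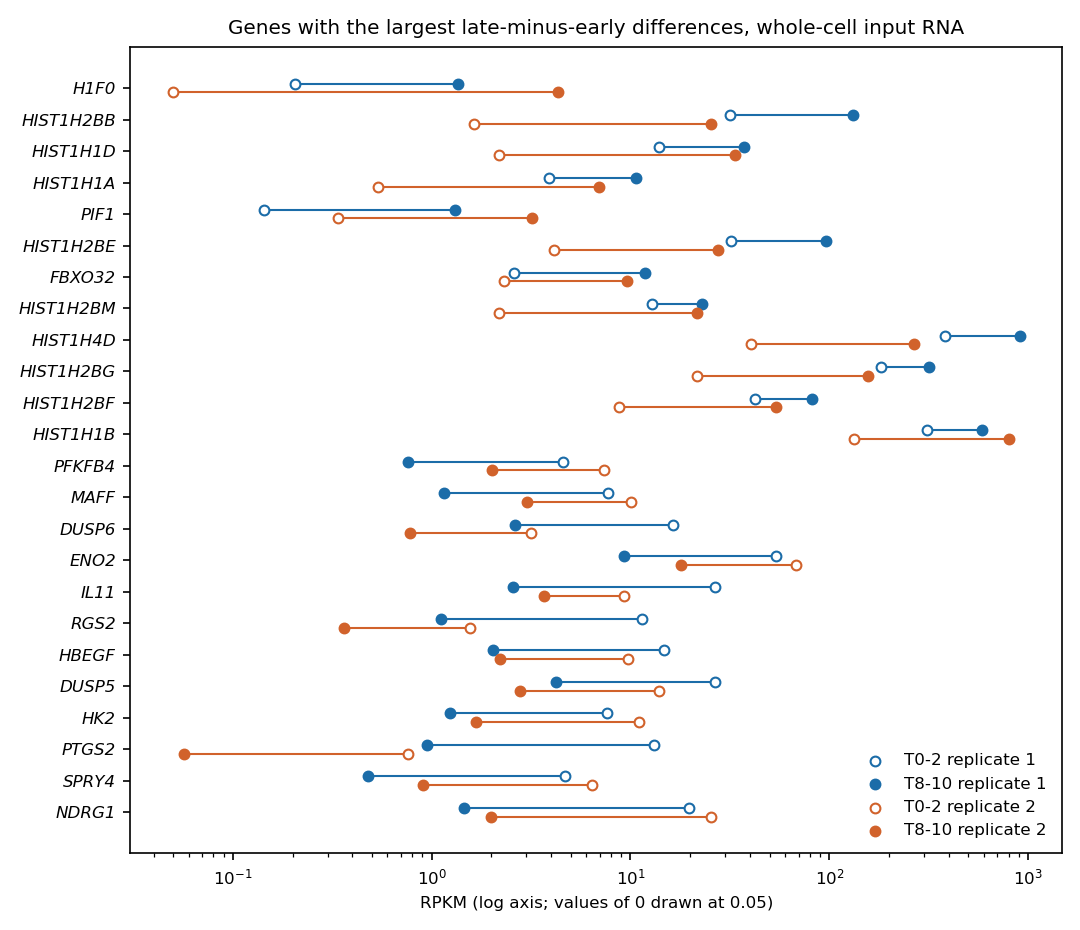
RPKM (log axis) of the 12 genes with the largest called rise and the 12 with the largest called fall in the 4 libraries compared; open points are T0-2, filled points T8-10, colours the replicate, and lines join a pair. In each of the 24 genes both lines run the same way, which the naming rule required. The 2 replicates often start at different levels, as in HIST1H2BB at 31.6 and 1.64 RPKM.

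Genes of the hypoxia and iron-chelation response fell most as a group. Of 30 tested, 20 fell and 0 rose, and in 20 of the 30, not all of them the same genes, both late libraries lay below both early ones, a separation seen in 7.54% of all tested genes. The list's median difference was -1.16, with -1.17 in pair 1 and -1.02 in pair 2. NDRG1, a gene long known to be induced by iron chelators and hypoxia, had 19.7 and 25.5 RPKM at T0-2 (replicates 1 and 2) and 1.45 and 2.00 at T8-10. Both late values were far below both early ones, and the difference was -3.54 ± 0.32 (SE, 2 libraries per window; limma adjusted p = 0.00035). PFKFB4, a kinase that tunes glycolytic flux, had 4.56 and 7.32 RPKM at T0-2 and 0.76 and 2.01 at T8-10. BNIP3, a mitophagy receptor, had 36.3 and 12.3 against 11.2 and 4.3, and the oxygen sensor EGLN1 had 5.16 and 3.08 against 1.96 and 1.19. For BNIP3 the late value of replicate 1 lay just under the early value of replicate 2. Angiogenic VEGFA, with 16.8 and 30.5 RPKM early and 9.08 and 10.7 late, fell by 1.18 ± 0.32. CA9, a carbonic anhydrase, missed the threshold at -1.0 ± 0.32 (limma adjusted p = 0.071), and ADM one of -0.04 ± 0.44. The count of 20 became 12 without either T0-2 library and 9 without T8-10 replicate 1.

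Of 18 glycolysis genes 4 fell and 0 rose, with a list median of -0.78. They were HK2, a hexokinase (7.58 and 11 RPKM at T0-2, 1.23 and 1.67 at T8-10; -2.48 ± 0.23), the enolase ENO2 (53.9 and 67.8 against 9.32 and 17.9; -2.20 ± 0.40), the lactate carrier SLC16A3 (-1.71 ± 0.34) and PDK1, which restrains pyruvate entry into mitochondria (-0.98 ± 0.20). In each of the first 3 the early and late libraries did not overlap. Among 12 iron genes the transferrin receptor TFRC fell, from 24.1 and 6.12 RPKM to 4.67 and 1.97 (-1.91 ± 0.37), and the iron exporter SLC40A1 rose by 0.67 ± 0.18. FTH1, the heavy chain of ferritin, did not pass and had 4.98 and 6.59 RPKM early and 1.65 and 8.20 late, lower in pair 1 and higher in pair 2. The glycolysis count was 2 without T0-2 replicate 1, 1 without T0-2 replicate 2 or T8-10 replicate 1 and 9 without either T6-8 library. It was 11 with quantile normalization, 7 with median scaling and 8 with voom.

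The upstream 200 bases of fallen members were read from RefSeq promoters (GRCh38.p14, 1 start per gene, the one farthest 5′ in the promoter table; bases just before it). That start was the 5′ end of the annotated gene for 6578 of the 7468 tested genes with a promoter and lay elsewhere for 890, among them PFKFB4, whose printed window is inside its gene span. Of the 20 fallen hypoxia genes 15 had a promoter in the table, and 13 of these (86.7%) held ACGTG or GCGTG on either strand, the core letters of the hypoxia response element, against 51.9% of 7468 tested genes and 38% of all 27305 promoters. Of the 4 fallen glycolysis genes 2 (50%) held one, close to the share of tested genes. Both short motifs are common, so a match is a description of letters and not a binding site. No share was computed for uncalled members of these lists, so the letters are not tied to the fall. PFKFB4 and INSIG2 of the hypoxia list and HK2 of the glycolysis list are shown as strong falls with a match, with each match in capitals (CACGT and CACGC are the same letters on the other strand).
PFKFB4 (chr3:48556804-48557003, minus strand): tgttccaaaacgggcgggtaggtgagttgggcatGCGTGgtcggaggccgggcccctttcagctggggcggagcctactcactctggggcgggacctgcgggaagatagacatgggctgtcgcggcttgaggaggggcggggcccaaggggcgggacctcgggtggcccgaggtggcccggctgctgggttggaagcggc
INSIG2 (chr2:118088271-118088470, plus strand): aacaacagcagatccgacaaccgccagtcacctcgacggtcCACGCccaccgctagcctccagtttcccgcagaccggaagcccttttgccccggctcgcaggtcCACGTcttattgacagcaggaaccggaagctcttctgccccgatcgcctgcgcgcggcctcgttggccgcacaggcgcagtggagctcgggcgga
HK2 (chr2:74833927-74834126, plus strand): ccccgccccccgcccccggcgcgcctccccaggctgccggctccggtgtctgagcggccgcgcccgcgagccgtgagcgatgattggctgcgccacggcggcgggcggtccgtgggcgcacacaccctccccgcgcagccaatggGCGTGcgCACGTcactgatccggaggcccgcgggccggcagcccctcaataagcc
INSIG2, which retains sterol sensors in the endoplasmic reticulum, had 7.99 and 2.3 RPKM at T0-2 and 1.88 and 0.697 at T8-10.

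Immediate early genes and the feedback inhibitors of ERK signalling fell together with them. Immediate early genes are switched on within minutes of growth factor or stress signals without new protein. Of 21 tested, 10 fell and 0 rose, with a median of -0.93 (-1.25 in pair 1 and -0.58 in pair 2). EGR1, a zinc finger transcription factor, had 13 and 22.5 RPKM at T0-2 and 1.65 and 10.7 at T8-10, so the fall of -1.93 ± 0.37 was much deeper in replicate 1. FOS, a subunit of AP-1, had 5.78 and 7.56 against 1.20 and 2.98. Its partner JUN had 94.1 and 130.3 against 28.4 and 53.9, and MAFF, a small Maf protein, 7.69 and 10.1 against 1.16 and 3.03. In all 3 the early and late libraries were apart. The count of 10 was 5 without T0-2 replicate 1 and 4 without T8-10 replicate 1.

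Among 15 ERK feedback inhibitors 7 fell and 0 rose (median -0.75). SPRY4, which dampens receptor tyrosine kinase signalling and lies at chr5:142310430-142325021, had 4.68 and 6.42 RPKM at T0-2 and 0.476 and 0.907 at T8-10. Its difference of -2.64 ± 0.18 had the smallest adjusted p of the named genes (limma adjusted p = 8.9e-05). The ERK phosphatases DUSP5 (26.7 and 13.9 against 4.20 and 2.77 RPKM) and DUSP6 (16.3 and 3.18 against 2.61 and 0.781) fell by 2.41 ± 0.26 and 2.13 ± 0.21, and ERRFI1, an inhibitor of the EGF receptor, by 1.73 ± 0.23. The count was 4 without either T0-2 library and 4 without T8-10 replicate 1. Of 20 NF-kB and cytokine genes 8 fell and 0 rose: PTGS2, the inducible cyclooxygenase, from 13.2 and 0.762 RPKM to 0.943 and 0.0569, the EGF receptor ligand HBEGF from 14.7 and 9.68 to 2.04 and 2.22, and IL11, CSF2, CXCL8, LIF, TNFAIP3 and IL6. PTGS2 shows how far apart the replicates could be while moving alike: its late value in replicate 1 exceeded its early value in replicate 2. The count of 8 was 3 without T0-2 replicate 1, 5 without T0-2 replicate 2 and 2 without T8-10 replicate 1.

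Of 9 fallen immediate early genes with a promoter in the table, 1 held the CArG box of serum response factor in the upstream 200 bases, against 0.951% of tested genes. It was EGR1, shown here for its 2 copies in capitals.
EGR1 (chr5:138465279-138465478, plus strand): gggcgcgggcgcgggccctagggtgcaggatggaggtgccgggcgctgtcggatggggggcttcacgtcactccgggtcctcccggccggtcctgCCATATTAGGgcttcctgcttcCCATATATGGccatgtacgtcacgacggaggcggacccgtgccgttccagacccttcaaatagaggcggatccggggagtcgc
For the other 8, no match says only that the letters are not in this window. The share among uncalled immediate early genes was not computed.

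Genes of DNA replication and the G1/S transition fell from the early to the late window. Of 54 tested 16 fell and 0 rose, and the median was -0.51 (-0.62 in pair 1 and -0.53 in pair 2). CCNE1, cyclin E1, which drives entry into S phase, had 2.64 and 1.75 RPKM at T0-2 and 0.516 and 0.364 at T8-10, a difference of -1.81 ± 0.15 (limma adjusted p = 0.00033). Its paralogue CCNE2 had 5.68 and 1.87 against 0.956 and 0.453 (-1.95 ± 0.22), and in both genes the windows did not overlap. The transcription factor E2F1 had 7.17 and 8.69 RPKM early and 1.97 and 3.78 late (-1.45 ± 0.24), and E2F2 fell by 1.09 ± 0.15. The licensing factor CDC6 fell by 1.43 ± 0.25, as did other parts of the replication machinery: MCM6 of the helicase (-1.08 ± 0.17), ORC1 of the origin recognition complex (-0.66 ± 0.14), CDC45, GINS2 and the polymerase subunit POLE (-0.93 ± 0.23). SLBP, the stem-loop binding protein of histone mRNA, was the 1 fallen gene of 15 histone mRNA factors, from 7.07 and 4.87 RPKM to 3.27 and 2.73 (-0.92 ± 0.22), and 0 of those 15 rose. Of 28 nucleotide supply enzymes 3 fell, IMPDH1, PAICS and PRPS2, and 0 rose. That count was 0 without T0-2 replicate 2 or T8-10 replicate 1, 1 without T2-4 replicate 2 or T8-10 replicate 2, and 6 without either T6-8 library. The G1/S count was 6 without T0-2 replicate 2 and 5 without T8-10 replicate 1. The D-type cyclin gene CCND1 did not pass, with 80.7 and 91.2 RPKM at T0-2 and 83.2 and 85.1 at T8-10.

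Of the 16 fallen G1/S genes 13 had a promoter, and 7 of these (53.8%) held 1 of 4 spellings of the E2F site, TTTGGCGC, TTTCCCGC, TTTCGCGC or TTTGCCGC, on either strand, against 4.02% of tested genes. The share among uncalled members of the list was not computed, so these letters are not tied to the fall. E2F1 and E2F2 are shown because they encode factors that bind such letters themselves (GCGGCAAA is TTTGCCGC on the other strand).
E2F1 (chr20:33686386-33686585, minus strand): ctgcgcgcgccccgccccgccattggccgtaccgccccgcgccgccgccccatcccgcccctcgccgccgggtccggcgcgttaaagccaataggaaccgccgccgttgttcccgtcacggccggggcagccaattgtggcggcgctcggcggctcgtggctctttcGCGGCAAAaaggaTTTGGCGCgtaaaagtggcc
E2F2 (chr1:23531234-23531433, minus strand): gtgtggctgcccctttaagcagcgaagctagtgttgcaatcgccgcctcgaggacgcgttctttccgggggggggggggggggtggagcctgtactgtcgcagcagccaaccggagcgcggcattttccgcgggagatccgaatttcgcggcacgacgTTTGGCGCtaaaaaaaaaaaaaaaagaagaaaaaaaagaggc

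Genes of G2 and mitosis rose. Of 62 tested 24 rose and 1 fell, with a median of 0.60, 0.83 in pair 1 and 0.39 in pair 2. CCNB1, cyclin B1, the regulatory subunit of the mitotic kinase CDK1, had 4.33 and 1.78 RPKM at T0-2 and 16.6 and 4.37 at T8-10. The late value of replicate 2 lay just above the early value of replicate 1, and the difference was 1.54 ± 0.29 (limma adjusted p = 0.0097). PLK1, a mitotic kinase, had 1.18 and 2.34 RPKM early and 4.64 and 5.91 late (1.51 ± 0.22), with no overlap. CDC20, an activator of the anaphase-promoting complex, had 6.85 and 5.32 against 25.9 and 12.8 (1.55 ± 0.38), and the kinesin KIF20A 5.53 and 3.05 against 22.9 and 5.97 (1.46 ± 0.36). ASPM, a spindle pole protein, changed most, from 3.48 and 1.01 to 17.1 and 2.70 RPKM (1.72 ± 0.25). Other risen members were CCNB2, DLGAP5, HMMR, CDC25B, NEK2, CENPE, CENPF, AURKA, BUB1 and NDC80. The fallen member was MYBL2, which encodes B-Myb and is itself an E2F target, from 2.71 and 6.33 RPKM to 0.853 and 2.4 (-1.37 ± 0.22). CCNA2, cyclin A2, missed the threshold at 0.53 ± 0.31 (limma adjusted p = 0.30). The count of 24 was 7 without T0-2 replicate 1 and 6 without T8-10 replicate 1.

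The cell cycle genes homology region, an element of G2/M promoters, was searched as TTTGAA or TTCGAA on either strand. Of 22 risen G2/M genes with a promoter, 8 (36.4%) held it in the upstream 200 bases, against 7.03% of tested genes, and 16 (72.7%) held CCAAT on either strand, against 32%. Shares among uncalled G2/M genes were not computed, so neither element is tied to the rise. ASPM and CDC20, the largest rises with a match, are shown with the first element in capitals (TTCAAA is TTTGAA on the other strand).
ASPM (chr1:197146670-197146869, minus strand): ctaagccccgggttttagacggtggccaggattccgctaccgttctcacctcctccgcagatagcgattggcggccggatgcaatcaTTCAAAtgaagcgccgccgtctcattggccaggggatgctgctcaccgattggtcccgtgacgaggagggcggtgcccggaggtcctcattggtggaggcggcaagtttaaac
CDC20 (chr1:43358781-43358980, plus strand): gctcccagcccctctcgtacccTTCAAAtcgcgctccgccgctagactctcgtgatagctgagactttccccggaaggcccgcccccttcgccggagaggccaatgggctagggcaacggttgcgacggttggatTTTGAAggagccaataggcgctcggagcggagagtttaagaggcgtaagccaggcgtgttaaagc

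Replication-dependent histone genes were higher in the late window, by more in pair 2 than in pair 1. Of 49 tested 12 rose and 0 fell, and in 40 both pairs were higher, against 4264 of all 9740 tested genes. The median was 1.00, with 0.42 in pair 1 and 1.73 in pair 2. In 15 genes both late libraries lay above both early ones, a separation seen in 12.8% of all genes. HIST1H2BB, an H2B gene, had 31.6 and 1.64 RPKM at T0-2 and 131 and 25.3 at T8-10, a difference of 2.90 ± 0.48 (limma adjusted p = 0.0060). Its early value in replicate 1 was above its late value in replicate 2. All 5 linker histone genes of the somatic cluster rose: HIST1H1A (2.3 ± 0.43), HIST1H1B (1.75 ± 0.40), HIST1H1C (1.39 ± 0.39), HIST1H1D (2.61 ± 0.48) and HIST1H1E (1.48 ± 0.37). The other 7 were the H2B genes HIST1H2BB, HIST1H2BE, HIST1H2BF, HIST1H2BG and HIST1H2BM, the H2A gene HIST1H2AE and the H4 gene HIST1H4D, while 0 of the H3 genes passed. Histone genes are near-identical copies, so reads may be shared among them and single values are uncertain. The count of 12 was 5 without T0-2 replicate 1, 0 without T0-2 replicate 2, 22 without T8-10 replicate 1 and 1 without T8-10 replicate 2. With voom on recovered reads 30 rose.

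The octamer ATTTGCAT, the known element of H2B promoters, was in the upstream 200 bases of 7 of 11 tested H2B genes with a promoter (63.6%) and of both risen ones with a promoter there, against 1.02% of tested genes. Both are shown with the octamer in capitals.
HIST1H2BB (chr6:26043714-26043913, minus strand): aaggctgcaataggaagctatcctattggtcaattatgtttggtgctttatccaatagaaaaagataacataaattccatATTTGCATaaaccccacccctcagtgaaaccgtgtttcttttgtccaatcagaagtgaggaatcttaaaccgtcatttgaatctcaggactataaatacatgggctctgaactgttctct
HIST1H2BM (chr6:27814822-27815021, plus strand): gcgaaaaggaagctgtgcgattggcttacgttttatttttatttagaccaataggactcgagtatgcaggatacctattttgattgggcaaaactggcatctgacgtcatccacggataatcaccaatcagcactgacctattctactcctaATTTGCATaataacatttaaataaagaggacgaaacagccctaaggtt

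Of 10 replication-independent histone variants H1F0 and CENPA rose. H1F0, the linker histone of resting and differentiating cells, had 0.206 RPKM in T0-2 replicate 1, was listed at 0 in replicate 2, and had 1.37 and 4.32 at T8-10. The difference of 3.01 ± 0.40 depends on the pseudocount because of the 0. With both T0-2 values under 0.5 RPKM, H1F0 passed the filter only through later windows, where it is higher. CENPA, the centromeric H3, rose by 0.84 ± 0.21. Of these 2 rises 1 was called without T0-2 replicate 2 and 1 without T8-10 replicate 1. The H2A.Z gene H2AFZ had 225 and 84.3 RPKM early and 237 and 71.7 late, and H3F3B 46.9 and 32.2 against 51.9 and 28.7, so neither was separated from its replicate spread.

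Part of the interferon-stimulated genes also rose. Of 34 listed 24 were in the table and 17 were tested, of which 8 rose and 0 fell (median 0.67, 0.80 in pair 1 and 0.46 in pair 2). Members under the filter, all weak, went both ways. MX1 and IFIH1 were higher late in both pairs, MX2 and USP18 lower in both, and OASL, XAF1 and RSAD2 mixed. STAT2, a subunit of the interferon-activated factor ISGF3, had 3.51 and 4.03 RPKM at T0-2 and 8.58 and 10.1 at T8-10 (1.25 ± 0.29). IFI44L had 0.118 and 0.0952 against 1.03 and 0.356 (1.31 ± 0.23), and SAMD9L, IFIT5, HERC5, IFI35, IFI44 and PARP9 were the others. With both T0-2 values under 0.5 RPKM, IFI44L passed the filter only through later windows. ISG15, a ubiquitin-like modifier among the classic members, had 11.1 and 10.2 against 10.2 and 15.2 and did not pass (0.23 ± 0.32; limma adjusted p = 0.68). The count was 2 without T0-2 replicate 1 and 1 without T8-10 replicate 1.

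**Figure D3:**
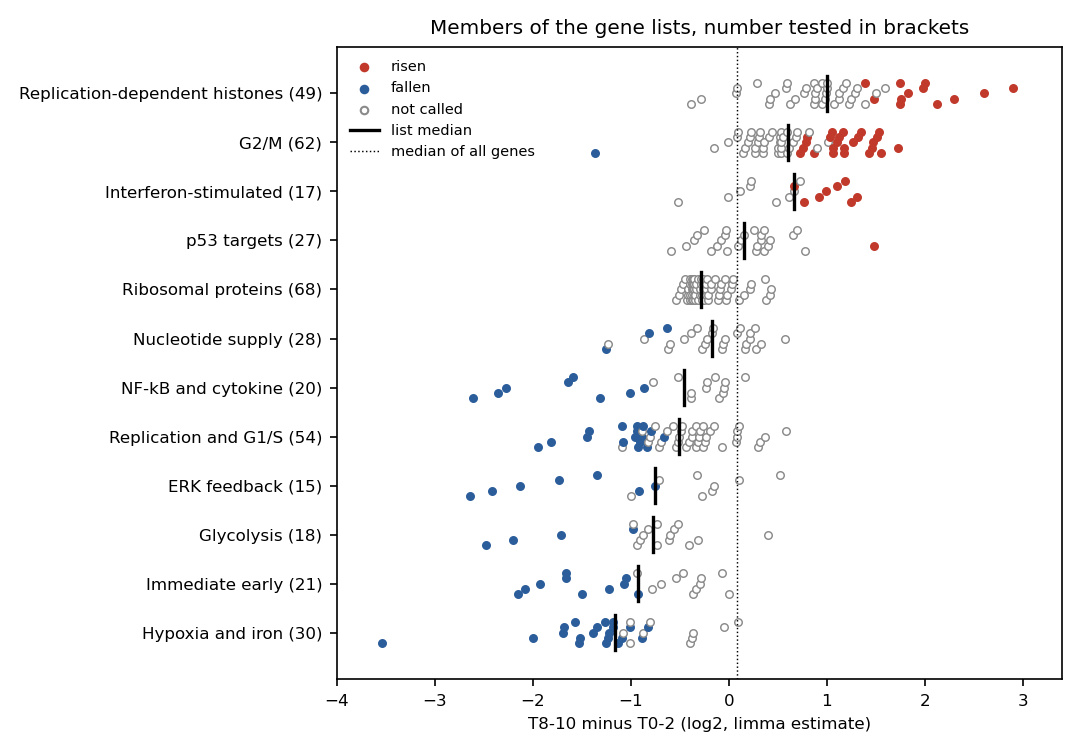
Late-minus-early difference (log2, limma estimate) of every tested member of 12 gene lists; filled red points rose, filled blue points fell, open points were not called, black bars are list medians and the dotted line is the median of all genes, 0.08. The list medians run from -1.16 for hypoxia and iron genes to 1.00 for replication-dependent histone genes.

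Many other lists held few or no called genes. Their counts are to be read against the 5.93% of all tested genes that rose and the 3.80% that fell, and a lone call is no result about a list. All 68 cytosolic ribosomal protein genes were uncalled (0 risen, 0 fallen by limma, 2 at an unadjusted p under 0.05), with differences from -0.54 to 0.43 and a median of -0.29. Even so, 53 of the 68 and 12 of 20 ER chaperone genes were lower late in both pairs, against 2877 of 9740 tested genes. Higher in both pairs were 8 and 0, against 4264 of the 9740. None of 20 ER chaperone genes, 15 heat shock genes, 17 snoRNA hosts, 12 abundant nuclear lncRNAs, 5 alpha-arrestin genes or 19 small nuclear and other tailless RNAs was called by limma, with 1, 2, 0, 3, 0 and 1 of them at an unadjusted p under 0.05. Of 27 p53 targets 1 rose, PLK2, a Polo-like kinase (54.5 and 26.1 RPKM early, 188 and 59.5 late; 1.48 ± 0.38). CDKN1A, which p53 induces and which inhibits cyclin-dependent kinases, had 112 and 165 RPKM early and 73.1 and 160.0 late (-0.33 ± 0.37).

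Of 21 ATF4 targets, genes of amino acid supply and the stress response, VLDLR (4.31 and 1.94 RPKM against 0.841 and 0.380; -1.93 ± 0.23), SLC7A5, GPT2 and CHAC1 fell and the cystine carrier SLC7A11 rose (0.92 ± 0.15). SLC7A11 was also the 1 risen gene of 15 NRF2 targets, where 0 fell. Among 30 nucleolar genes RRS1, a factor of ribosome assembly (3.77 and 8.49 RPKM against 11 and 25.6; 1.52 ± 0.28), WDR75, POLR1B and HEATR1 rose, and FBL, the fibrillarin methylase, fell by 1.04 ± 0.27. Of 28 homologous recombination and checkpoint genes 2 rose, a share near the 5.93% of all tested genes, and 15 were lower late. The 2 risen genes were the checkpoint kinase ATR (0.70 ± 0.16) and its activator ETAA1 (0.64 ± 0.18). That count was 0 without either T0-2 library or T8-10 replicate 1 and 1 without T8-10 replicate 2 or any 1 library of T2-4 or T4-6. It was also 0 with quantile normalization, with no filter and with the 4 libraries alone. The remaining calls in the lists were HMGA2 of 9 high-mobility group genes (2.74 and 4.80 against 7.0 and 8.97 RPKM; 1.07 ± 0.22), RBL2 risen and CCND3 fallen of 10 cyclin D and CDK inhibitor genes, COL5A2 risen of 25 matrix genes, TM7SF2 risen and SREBF1 and INSIG1 fallen of 22 sterol genes, SMOX fallen of 12 polyamine genes and TUBE1 risen of 9 tubulin genes. Calls in the nucleolar list were 0 risen without T0-2 replicate 1 or T8-10 replicate 1 and 2 without T0-2 replicate 2 or T8-10 replicate 2. Those of the sterol list were 1 fallen without either T6-8 library and 0 without any other of the 10, and the 4 falls of the ATF4 list were 2 without T8-10 replicate 1. No mitochondrially encoded gene was in the table. Of the 948 called genes, 142 were in a list and 806 in none.

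Long non-coding RNAs (lncRNAs) were called risen in 65 of 711 tested (9.14%) and fallen in 22 (3.09%), against 487 (5.61%) and 343 (3.95%) of 8685 protein-coding genes, as a description of the table. The 6 named lncRNAs with the largest differences were LINC01705, LINC00565, FOXC2-AS1 and LUCAT1, which fell, and URB1-AS1 and FAM111A-DT, which rose. LINC01705 had 0.820 and 3.43 RPKM at T0-2 and 0.163 and 0.558 at T8-10 (-1.78 ± 0.19; limma adjusted p = 0.00077), so the late value of replicate 2 was below the early value of replicate 1. FAM111A-DT had 0.911 and 0.899 RPKM early and 2.06 and 2.62 late (1.16 ± 0.16). URB1-AS1 had 0.322 RPKM in T0-2 replicate 1 and was listed at 0 in replicate 2, with 1.85 and 0.355 late. Its difference depends on the pseudocount because of the 0, and its late value in replicate 2 was close to its early value in replicate 1. Both T0-2 values were under 0.5 RPKM, so URB1-AS1 too passed the filter only through later windows. LUCAT1, at chr5:91302986-91314402 and a target of the study's knockdowns, had 0.919 and 0.780 RPKM at T0-2 and 0.274 and 0.199 at T8-10, a difference of -1.18 ± 0.16 (limma adjusted p = 0.0026). MANCR, the second target, had 3.25 and 2.36 against 3.80 and 1.5 and was not called (-0.18 ± 0.22). MIAT, the other target, was in the table but under the filter. The sources used here do not say whether reads of antisense and overlapping genes were told apart by strand, which bears on FOXC2-AS1 and URB1-AS1.

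The windows between the ends showed when these changes arose. Among the 578 risen genes 467 were highest at T8-10, and 29.1% had passed the midpoint of their full change at T2-4, 67.5% at T4-6 and 84.9% at T6-8. Among the 370 fallen genes 256 were lowest at T8-10 and 98 at T6-8, with 33% past the midpoint at T2-4 and 63.5% at T4-6. These shares use the same libraries as the calls and are a description. Values at T6-8 carry a further limit, also for the courses below. Its replicate 2 had the highest lower quartile of RPKM, 0.25, and low medians for unlike lists. The ribosomal protein median was -0.89 there and 0.20 in T6-8 replicate 1, and that of all tested genes -0.11 and 0.07.

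The lists took different courses. The hypoxia median was -0.46 and -0.61 at T2-4 (replicates 1 and 2), -0.88 and -0.94 at T4-6, -1.08 and -1.31 at T6-8 and -1.17 and -1.02 at T8-10. It was lower at each step until T6-8 in both replicates, with the limit given for T6-8 replicate 2. NDRG1 was lower in each successive window, with 19.7, 13.9, 8.54, 4.48 and 1.45 RPKM in replicate 1 and 25.5, 15.3, 6.37, 2.56 and 2.00 in replicate 2. ERK feedback inhibitors were lower at once: the median was -0.72 and -0.95 at T2-4 and -0.82 and -0.68 at T8-10. SPRY4 had 4.68 and 6.42 RPKM at T0-2, 1.20 and 1.32 at T2-4 and 0.476 and 0.907 at T8-10, so most of its drop lay before T2-4.

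G1/S genes stood at medians of 0.01 and 0.01 at T2-4 and were lower from T4-6 on, at -0.18 and -0.30. CCNE1 was highest at T2-4, with 3.42 and 1.87 RPKM, and had 1.73 and 0.971 at T4-6 and 0.857 and 0.463 at T6-8. Of the 54 members 34 were lowest at T8-10, against 1498 of all 9740 tested genes. G2/M genes were highest at T8-10 in 55 of 62, against 3136 of all 9740 tested genes. In replicate 2 their median stayed between -0.06 and 0.04 through T6-8 and reached 0.39 only at T8-10, while in replicate 1 it was 0.21, 0.35, 0.60 and 0.83 in the successive windows. CCNB1 shows this, with 4.33, 6.13, 6.02, 12.4 and 16.6 RPKM in replicate 1 and 1.78, 1.38, 1.75, 2.02 and 4.37 in replicate 2.

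Histone genes peaked in the middle windows. Of 49 members 30 were highest at T2-4, 13 at T6-8, 6 at T4-6 and 0 at T8-10, and 46 were lowest at T0-2. Of all 9740 tested genes 1562 were highest at T2-4 and 3273 lowest at T0-2. The median was 1.86 and 1.92 at T2-4, 1.40 and 1.89 at T4-6 and 1.87 and 1.44 at T6-8, and the replicates parted at T8-10, with 0.42 and 1.73. HIST1H1B had 309.7, 1187, 1188, 1665 and 582 RPKM in replicate 1 and 133, 736, 1096, 975 and 802 in replicate 2. In limma's F-test over the 5 windows 319 genes passed (3.28%), 295 of them also called between the ends, and 16 of the 49 histone genes were among the 319. A further 24 genes passed the F-test alone. HIST1H3C, an H3 gene, was one, with 586 and 136 RPKM at T0-2, 2267 and 792 at T2-4 and 790.5 and 552 at T8-10.

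**Figure D4:**
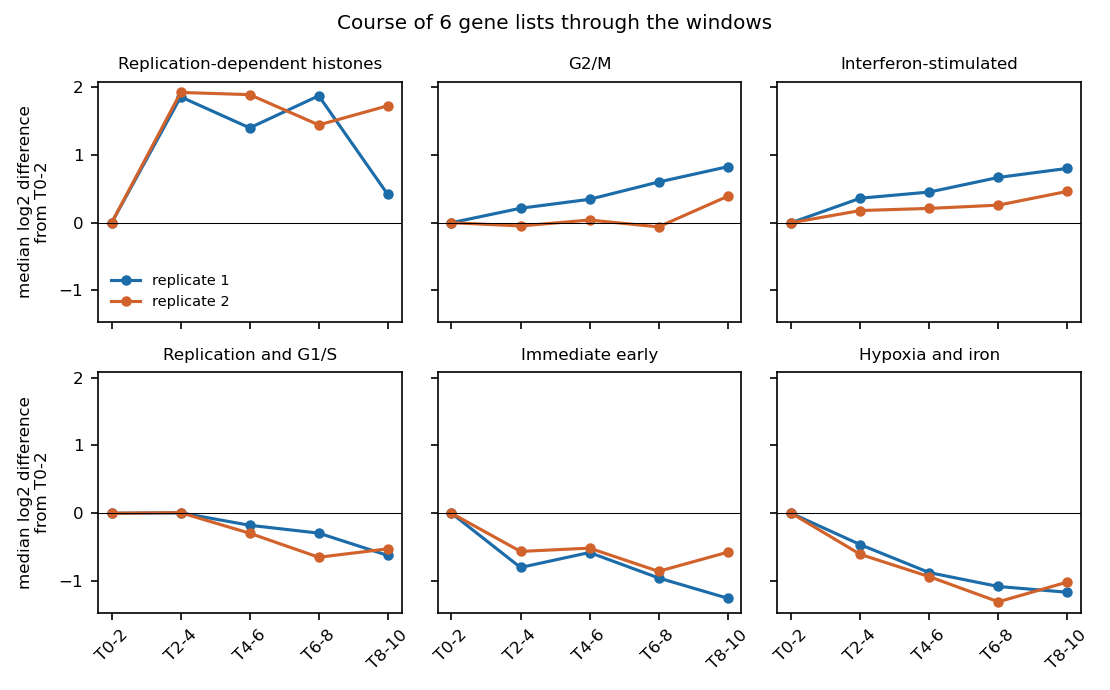
Median log2 difference from T0-2 over the tested members of 6 lists in each window, 1 line per replicate number. Histone genes are near their highest at T2-4 in both replicates, G2/M genes are highest at T8-10, and hypoxia genes decline to -1.17 and -1.02.

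**Figure D5:**
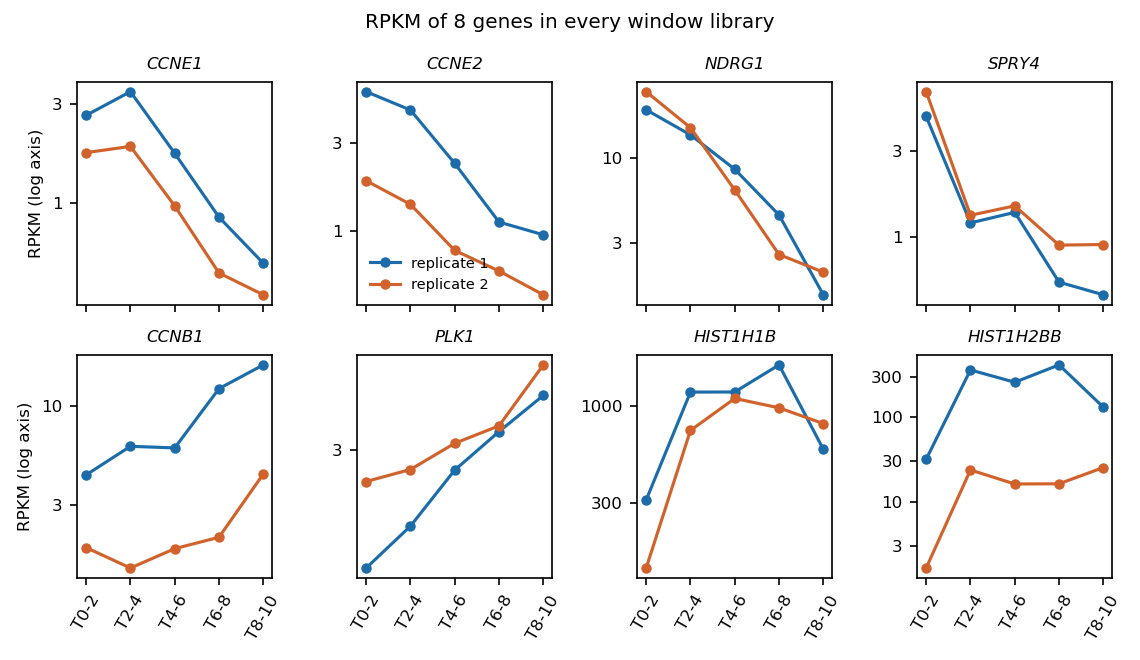
RPKM (log axes, each with its own range) of 8 genes in the 10 window libraries, 1 line per replicate number. CCNE1, CCNE2, NDRG1 and SPRY4 end below their start in both replicates, CCNB1 and PLK1 end highest, and HIST1H1B and HIST1H2BB climb steeply from T0-2 to T2-4.

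The same 2 windows were also sequenced as whole-cell nascent, nuclear input and nuclear nascent RNA. These tables were scaled separately, and the labels do not say whether they share cultures with the input RNA. Because nascent RNA was taken from input RNA, the whole-cell nascent libraries may hold the same material. Likeness between those tables is therefore not independent evidence, and values are set side by side without a test. Of the 578 risen genes, 527 of 574 present in the whole-cell nascent table were higher late in both pairs (91.8%, against 45% of all tested genes), 530 of 567 in nuclear input (93.5% against 51.4%) and 441 of 566 in nuclear nascent RNA (77.9% against 37.1%). Of the fallen genes, 348 of 368 were lower in both pairs in whole-cell nascent RNA (94.6% against 24.2%), 321 of 363 in nuclear input (88.4% against 26.2%) and 217 of 364 in nuclear nascent RNA (59.6% against 20.7%). The histone median was 0.38 and 1.17 (pairs 1 and 2) in whole-cell nascent RNA, 1.81 and 1.84 in nuclear input and 1.41 and 1.82 in nuclear nascent RNA, so the low value of pair 1 appeared in both whole-cell tables and in neither nuclear one. The G2/M median was 0.80 and 0.86 in whole-cell nascent RNA, 0.65 and 0.40 in nuclear input and 0.50 and 0.08 in nuclear nascent RNA. The hypoxia median was -0.96 and -0.89 in whole-cell nascent RNA and nearer 0 in the nuclear tables, at -0.53 and -0.56 in input and -0.63 and -0.33 in nascent RNA. Immediate early genes stood at -1.03 and -0.55 in whole-cell nascent RNA and at -0.17 and -0.30 in nuclear input. SPRY4 was lower late by like amounts in all 3 other tables, with log2 differences of -3.00 and -2.63 in whole-cell nascent, -2.49 and -3.14 in nuclear input and -2.56 and -2.87 in nuclear nascent RNA. LUCAT1 had -1.61 and -0.98 in whole-cell nascent, -1.97 and -1.29 in nuclear input and -2.74 and -1.38 in nuclear nascent RNA.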

How the data were processed

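Whole-cell input RNA of hTERT-RPE1 cells was analysed in 10 libraries, 2 in each of 5 windows. The authors deposited RPKM values, 1 column per library, per the file headers. The submitters' processing notes name, without roles, HOMER 4.10.3, Bowtie2 2.3.4.3, edgeR, featureCounts 1.6.1, STAR 2.5.3 and the build hg38. Annotation, poly(A) selection and use of strand were details not given in the sources used here. Gene lengths in base pairs, deposited by the authors in the tables of asynchronous knockdown cells, turned RPKM into reads: 100% of the low values (under 200 reads) were whole within 0.05, giving 7.84 to 23.4 (in units of 1000000 reads) per library. The 15 columns of per-sample values in those length tables were not used.

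Genes that reached 0.5 RPKM in 2 or more libraries were tested on log2(RPKM + 0.25) by limma 3.58.1 (R 4.3.3), with window and replicate number as terms (4 residual degrees of freedom), a mean trend and Benjamini-Hochberg adjustment. RPKM is no count, so no count model was the main test. This log2 scale, computed here from the deposited RPKM, understates changes of weak genes. The pairing by replicate number comes from the rule of the comparison. As a check, deviations of same-numbered libraries correlated at 0.879 to 0.939 over the pairs of windows. In data simulated for this comparison on 9740 genes, 61% of genes changed by 1 and 94% of those changed by 2 (log2) were recovered, with 9 unchanged genes called. Alternatives were no replicate term, other pseudocounts, filters and scalings, voom on the recovered reads, the 4 libraries alone and leaving out each library.

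The comparison, the 35 gene lists and the rules were chosen with earlier results of these data known. Genes named by rule were the 12 largest called rises and 12 largest called falls reaching 2 RPKM with the same sign in both pairs, without clone names or pseudogenes, up to 4 members of smallest p per list, the 6 lncRNAs with the largest called differences, the 3 knockdown targets and 4 cyclins. Other named list members and the genes whose promoters are printed were chosen after their values were seen. Printed promoters were those of the largest changes with a match, leaving out genes on chromosome 8. Promoters are from RefSeq, GRCh38.p14, matched by symbol or synonym for 7468 of 9740 tested genes. Plots come from matplotlib 3.10.9 under Python 3.11.15.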

Additional observations from a re-analysis of the deposited data

Results flagged for a closer look

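Among the named genes, CHAC1, ETAA1 and JMJD6 were called in whole-cell input RNA but had the opposite sign in both replicate pairs of nuclear nascent RNA. They were not the only called genes to do so: 12 of 566 risen and 9 of 364 fallen genes did. The differences between the kinds of RNA were not tested. CHAC1, which degrades glutathione, fell by 1.02 on the log2 scale in whole-cell input RNA and had a mean difference of 0.13 in nuclear nascent RNA, at 0.404 and 0.398 RPKM at T0-2 and 0.452 and 0.475 at T8-10. JMJD6, a hydroxylase of the hypoxia list, fell by 0.88 in input RNA and had a mean difference of 0.17 in nuclear nascent RNA, at 2.13 and 1.95 against 2.17 and 2.48 RPKM. ETAA1, an activator of ATR, rose by 0.64 in input RNA and had -0.025 in nuclear nascent RNA, at 2.12 and 1.23 against 2.08 and 1.20 RPKM, a difference near 0 in both pairs.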

How the results depend on the processing

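Without the replicate block 0 genes were called between the ends (risen 0, fallen 0; 249 at an unadjusted p under 0.05), 0 in the F-test (75 unadjusted) and 0 in each of the 7 main lists. All 150 called genes among those named or listed (135 testable at 1 RPKM, 149 with voom) kept their direction in every alternative run. In runs without the replicate term, with other filters, with the 4 libraries alone or without a middle-window library, a gene's estimate could not change. Only the other runs could turn a direction, and these genes had been called with the same sign in both pairs. Called genes, 948 with 578 risen and 370 fallen, were 439 (237 and 202) with no filter, 1458 (904 risen) with voom on recovered reads and 618 (312 risen) with the 4 libraries alone. Risen genes were 362 with at least 1 RPKM and 293 with quantile normalization, and fallen genes 560 with median scaling. The risen share of calls was 61% as reported, 41.2% with median scaling, 39% with quantile normalization, 54% with no filter, 53.2% at 1 RPKM and 50.5% with 4 libraries. The F-test's 319 was 194 with a pseudocount of 1, 102 with no filter and 929 with voom. Risen histone genes were 3 with no filter and 30 with voom, risen G2/M genes 15 with no filter, and risen interferon-stimulated genes 5 with no filter, at 1 RPKM, with quantile normalization and with 4 libraries.

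Leaving out 1 library at a time gave 239 (without T8-10 replicate 1) to 1152 (without T6-8 replicate 2) called genes, 140 to 665 risen and 99 to 487 fallen. The F-test gave 109 (without T0-2 replicate 2) to 515 (without T4-6 replicate 1). Risen members were 0 to 22 for histone genes, 6 to 27 for G2/M genes and 1 to 8 for interferon-stimulated genes. Fallen members were 5 to 24 for G1/S genes, 9 to 25 for hypoxia genes, 4 to 10 for immediate early genes and 4 to 8 for ERK feedback inhibitors. The cause of these shifts was not tested. Libraries numbered 1 had 486 to 764 genes at 0 and those numbered 2, with fewer reads, 27 to 205, so zeros did not follow depth.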

Other observations

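Of the 24 genes that passed limma's F-test over the 5 windows but were not called between the ends, 6 were histone genes (HIST1H3J, HIST1H3C, HIST1H2AB, HIST1H2AD, HIST4H4 and HIST2H2BF). GDF15, a stress-induced cytokine of the TGF-beta family and a p53 target, had 2.13 and 3.68 RPKM at T0-2 (replicates 1 and 2), 3.85 and 12.2 at T4-6, 4.76 and 9.40 at T6-8 and 1.43 and 6.06 at T8-10. Its values were highest in the middle windows in both replicates and the ends differed by 0.09 ± 0.29 (log2, SE; limma adjusted p = 0.86). PCF11, which ends transcription of mRNA genes, was lowest at T2-4, with 0.967 and 0.881 RPKM against 1.92 and 1.59 at T0-2 and 3.52 and 1.96 at T8-10. DLX1, a homeobox gene, had 1.30 and 1.45 at T0-2, 0.557 and 0.813 at T6-8 and 0.726 and 1.11 at T8-10. These genes were named after their values were seen.

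H1F0 was highest in whole-cell input RNA at T6-8 in replicate 1 (3.14 RPKM) and at T8-10 in replicate 2 (4.32). In nuclear input RNA it was listed at 0 in both T0-2 libraries and had 0.749 and 0.717 RPKM at T8-10. TXNIP, an inhibitor of thioredoxin among the alpha-arrestin genes, had 55.2 RPKM at T0-2 and 114 to 139 RPKM in the later windows of replicate 1, but 46.6 at T0-2 and 25.7 to 59.9 in those of replicate 2.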
